A study of Mus musculus with 6 samples.

Results

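Nox4 encodes a membrane NADPH oxidase, and 8 circular RNAs (circRNAs) of this locus were followed through the differentiation of cultured mouse brown preadipocytes. They were the 8 of 3869 listed circRNAs that lay wholly within chromosome 7, 94390000 to 94550000, on the plus strand of build mm9. The locus was chosen because its circRNAs were already known to be higher at day 8 in these libraries. The levels by day are therefore a description, without p-values, and the counts of called members are given only beside those of the whole table.

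The cells were stromal vascular cells of C57BL/6 mice aged 6 weeks, taken from a depot that the labels name inguinal BAT (brown adipose tissue). There were 2 libraries at day 0 (proliferating cells), 2 at day 4 (after induction medium with insulin, dexamethasone and isobutylmethylxanthine for 4 days) and 2 at day 8 (after a further 4 days with insulin and the thyroid hormone T3). All groups share the strain, the depot and the removal of ribosomal and linear RNA before sequencing. The labels do not say whether replicates were separate cultures or animals, so their spread may be technical, and the identity of the cells was not checked because the table holds circRNAs alone. Values are CPM as the authors deposited them, and each library sums to 1000000 over the listed circRNAs. Each library held 40384 to 45733 such reads, inferred from the step between CPM values, so that 1 read was worth 21.9 to 24.8 CPM. A library with 0 reads of a circRNA is compatible with an expected count of up to 3 reads, which corresponds to 65.6 to 74.3 CPM. No library had a value of 1 read, so an entry of 0 may hide 1 read and its limit is higher.

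The NOX4 protein passes electrons from NADPH to oxygen and releases mainly hydrogen peroxide. Unlike most NADPH oxidases it is largely active as made, and needs the membrane partner encoded by Cyba but not the cytosolic activator subunits. It is a known source of reactive oxygen in preadipocytes and adipocytes. A circRNA forms when the splice donor at the end of an exon is joined to the acceptor at the start of the same or an earlier exon, and having no free ends it tends to outlast the linear mRNA.

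The ends of the members fell on Nox4 exons. The 8 circRNAs use 5 distinct starts and 5 distinct ends. The distances among these 10 positions were compared with the distances among annotated exon boundaries (GENCODE M21), without carrying coordinates from one genome build to the other. All 10 matched exon starts and ends of Nox4 under a single shift, against at most 2 of 10 for any other of the 2173 genes annotated on the same chromosome and strand. In the transcript Nox4-201, which has 18 exons, the members run from exon 3 at the earliest to exon 17 at the latest, all of them coding. Exon 1, exon 2 and exon 18, the last of which holds the 3′ UTR, lie in no member. Each circRNA is named below by its first and last exon, and only the back-splice was measured, so the exons within a circle are inferred.

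The back-splice junctions show which circRNAs share an end. Each line gives the last 20 bases of the final exon in lower case, followed by the first 20 bases of the first exon in capitals, 5′ to 3′ in the sense of the mRNA, built from the annotated Nox4-201 sequence.
exons 3 to 6: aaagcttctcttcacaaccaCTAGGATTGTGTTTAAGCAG
exons 3 to 11: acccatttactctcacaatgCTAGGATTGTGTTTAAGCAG
exons 3 to 12: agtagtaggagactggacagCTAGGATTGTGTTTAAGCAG
exons 5 to 12: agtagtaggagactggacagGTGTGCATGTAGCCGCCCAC
exons 7 to 12: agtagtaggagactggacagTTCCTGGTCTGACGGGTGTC
exons 12 to 13: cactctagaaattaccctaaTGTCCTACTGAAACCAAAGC
exons 12 to 17: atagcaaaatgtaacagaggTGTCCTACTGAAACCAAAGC
exons 13 to 17: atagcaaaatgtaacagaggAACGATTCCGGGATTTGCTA
Those 3 with the capitals of exon 3 share an acceptor, and those 3 with the lower-case end of exon 12 share a donor. Both circRNAs that start at exon 12 likewise share an acceptor, and both that end at exon 17 share a donor.

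On mm9, counting from 1, the circRNA of exons 3 to 6 spans chr7:94444294-94455266, exons 3 to 11 chr7:94444294-94472505 and exons 3 to 12 chr7:94444294-94487527. The circRNA of exons 5 to 12 spans chr7:94453348-94487527 and that of exons 7 to 12 chr7:94462574-94487527. Downstream, exons 12 to 13 span chr7:94487467-94509319, exons 12 to 17 chr7:94487467-94524792 and exons 13 to 17 chr7:94509238-94524792. The genomic spans ran from 10973 to 43234 bp with a median of 26583 bp, against a median of 7871 bp over the table. If every annotated exon in between is kept, the circles would be 143 nt (exons 12 to 13, the shortest) to 982 nt (exons 3 to 12, the longest) in length. Exons 7 to 12 would give 660 nt, exons 13 to 17 481 nt and exons 12 to 17 542 nt. Of the 8, only exons 3 to 11 carries an identifier of circBase, a public circRNA catalogue (mmu_circ_0014445). The other 7 (87.5%) have none, against 36.9% of the whole table. The nearest other listed circRNA on the chromosome, on either strand, was 1868 kb away.

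**Figure D1:**
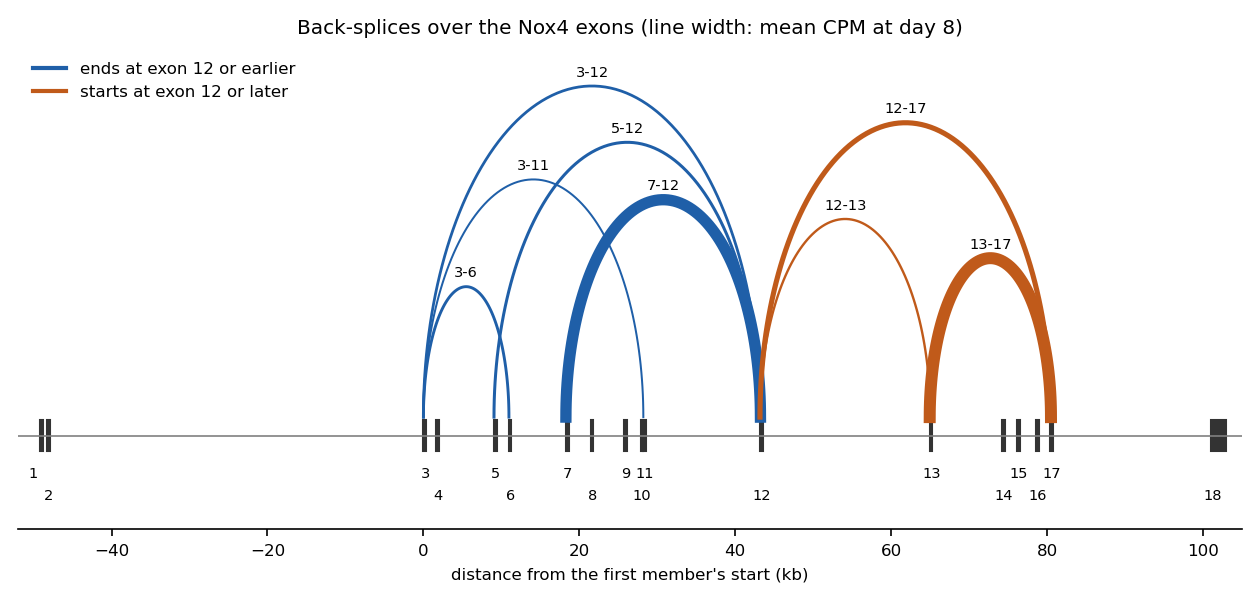
Back-splices of the 8 Nox4 circRNAs drawn as arcs over the 18 exons of Nox4-201, with distance from the first member's start in kb on the x axis. Line width grows with mean CPM at day 8. Blue arcs end at exon 12 or earlier and orange arcs start at exon 12 or later. The thick arcs are exons 7 to 12 (967 CPM) and exons 13 to 17 (1033 CPM), and 5 of the 8 arcs have an end at exon 12.

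Exon 12, of 61 nt, was the exon most used. It supplied the donor of 3 members (exons 3 to 12, 5 to 12 and 7 to 12) and the acceptor of 2 (exons 12 to 13 and 12 to 17). Exon 13, of 82 nt, was also used from both sides, as the donor of exons 12 to 13 and the acceptor of exons 13 to 17. At day 8, circRNAs with an end at exon 12 held 83 of 127 Nox4 reads in replicate 1 (65.4%, 95% exact binomial interval 56.4 to 73.6%) and 63 of 124 in replicate 2 (50.8%, 41.7 to 59.9%). Such intervals cover counting error only, since reads without molecular identifiers need not be independent molecules. A stretch of 20 to 300 bp used from both sides was not particular to Nox4. It was found in 107 of 710 groups of at least 2 overlapping same-strand circRNAs (15.1%), and in 14 of the 17 groups with at least 8 (82.4%).

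The Nox4 circRNAs together were scarce at days 0 and 4 and much higher at day 8. Their sum was 46.4 and 266 CPM at day 0, with 372 and 74.3 CPM at day 4, and reached 3111 and 2937 CPM at day 8. Both day 8 libraries lay far above all 4 earlier ones, while the libraries of days 0 and 4 overlapped. The inferred reads were 2 and 11 at day 0, 17 and 3 at day 4, and 127 and 124 at day 8. Day 0 averaged 156 ± 156 CPM, day 4 averaged 223 ± 210 CPM and day 8 averaged 3024 ± 123 CPM in sum (SD, n = 2 each). In shares of all listed reads, day 8 replicate 1 had 0.311% (95% exact binomial interval 0.259 to 0.370%) and day 8 replicate 2 had 0.294% (0.244 to 0.350%). The highest earlier library, day 4 replicate 1, had 0.0372% (0.0217 to 0.0595%). These intervals cover counting error only. Because the locus was chosen as higher at day 8, the distance between them is no support for the rise. In these bulk libraries, more cells with Nox4 circRNAs and more of these circRNAs per cell cannot be told apart. Each value is a share of the listed circRNA reads, so a change in the amount of the other circRNAs cannot be told apart from these either.

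The mean sum at day 8 was 19.3 times that at day 0 and 13.6 times that at day 4. On the scale of log2(CPM + 43.7), with the lowest value above 0 in the table as the added constant, limma gave a difference of 4.27 (SE 0.81) for day 8 minus day 0 and 3.83 (SE 0.81) for day 8 minus day 4. For day 4 minus day 0 it was 0.44 (SE 0.81), within the error. Leaving out day 0 replicate 1 gave 3.39 for day 8 minus day 0, and leaving out day 0 replicate 2 gave 5.18. For day 8 minus day 4 the value was 4.78 if day 4 replicate 1 was left out and 2.89 if day 4 replicate 2 was. The difference of day 4 minus day 0 had no settled sign. Leaving out a first replicate made it negative, with -0.43 (day 0 replicate 1) and -0.50 (day 4 replicate 1), and leaving out a second replicate gave 1.34 (day 0) and 1.38 (day 4). These comparisons share libraries, so their differences are not independent.

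**Figure D2:**
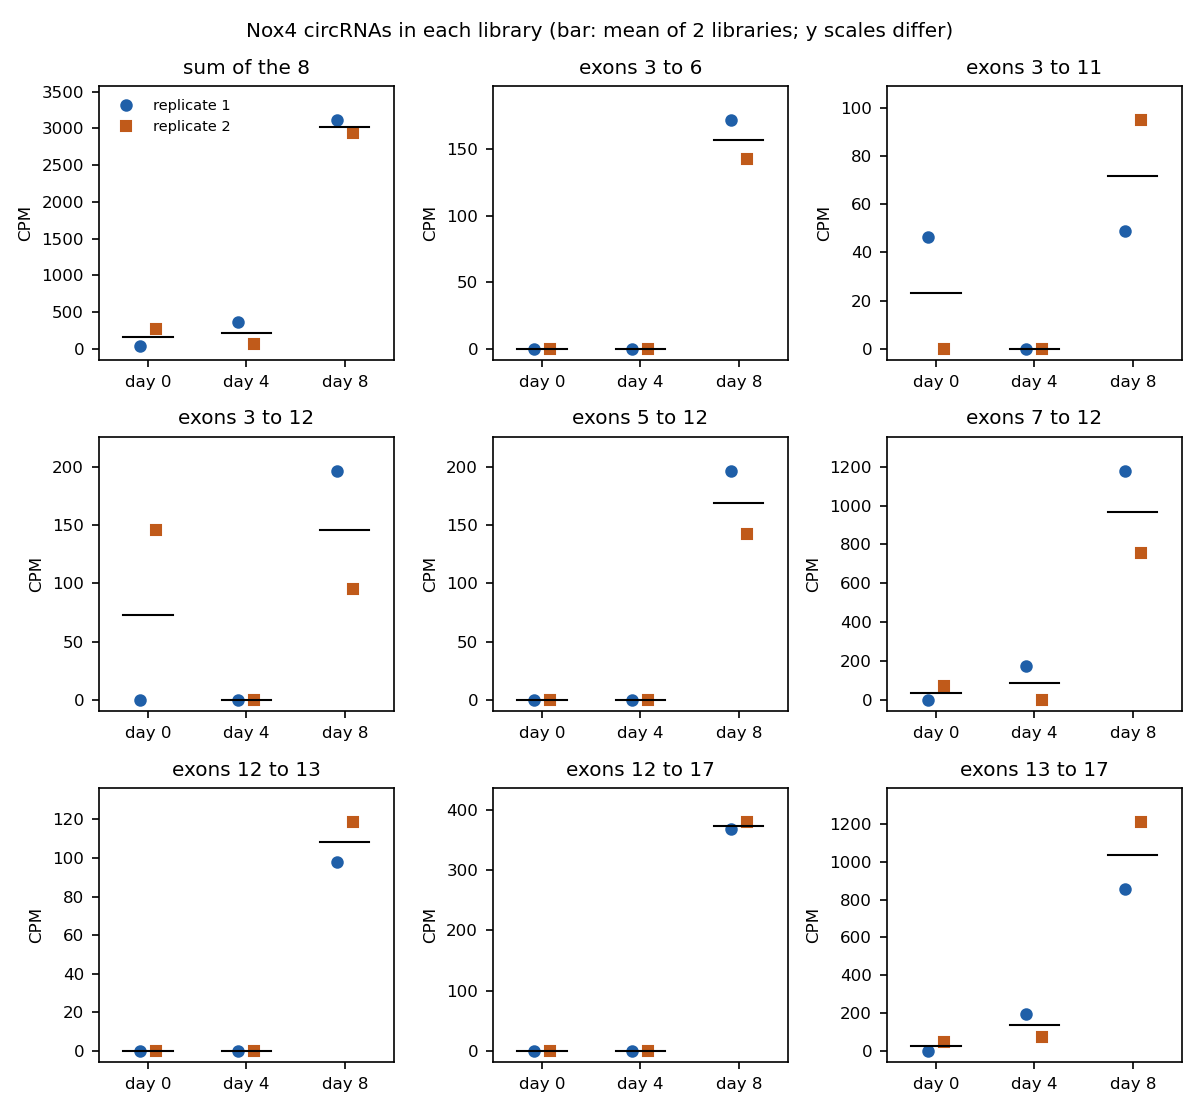
CPM of the sum and of each of the 8 Nox4 circRNAs (y axes, linear, with scales that differ between panels) at days 0, 4 and 8 (x axis). Circles are replicate 1, squares replicate 2 and bars the mean of 2 libraries. The sum lies at 46.4 to 372 CPM in the earlier libraries and at 2937 and 3111 CPM at day 8, and in the panel of exons 3 to 12 days 0 and 8 overlap.

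The way the table was made bears on the sum and on every count of members. For each of the 3869 circRNAs there was a day with both libraries above 0. Of the 8 Nox4 members, 7 met this at day 8 alone, against 696 circRNAs (18.0%) of the table. The exception was exons 13 to 17, which was also above 0 in both day 4 libraries. A member listed only through day 8 had to be higher there than in at least 1 earlier library of each day, so the number of members that are higher at day 8 is no support for the rise. A Nox4 circRNA with no day on which both libraries were above 0 is not listed and adds nothing to the sum. The sums of days 0 and 4 may therefore be too low, and the ratios of day 8 to them too high.

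Setting the levels of different members side by side takes each read as a crossing of a single junction, whatever the length of the circle. Whether all junctions were detected equally well was not tested. Exons 13 to 17 had the highest mean at day 8. It was listed at 0 and had 48.4 CPM at day 0 (0 and 2 reads), 197 and 74.3 CPM at day 4 (9 and 3 reads), and 857 and 1208 CPM at day 8 (35 and 51 reads). It was the one member whose levels did not overlap between any 2 days. Days 0 and 4 were parted only by 2 reads (day 0 replicate 2) against 3 reads (day 4 replicate 2). Both are within the limit of 3, so that gap was not resolved. The log2 difference was 4.12 (SE 0.63) for day 8 minus day 0, 2.70 (SE 0.63) for day 8 minus day 4 and 1.42 (SE 0.63) for day 4 minus day 0. By its mean at day 8 it ranked 165 of 3869 circRNAs.

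Exons 7 to 12 reached a similar level. It was listed at 0 and had 72.6 CPM at day 0 (0 and 3 reads), had 175 CPM and was listed at 0 at day 4 (8 and 0 reads), and had 1176 and 758 CPM at day 8 (48 and 32 reads). Its day 8 libraries lay above all earlier ones, and its days 0 and 4 overlapped. The log2 difference was 3.85 (SE 0.95) for day 8 minus day 0 and 3.37 (SE 0.95) for day 8 minus day 4, with a larger error than for any other member. By its mean at day 8 it ranked 177 of 3869.

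Exons 12 to 17 joins the acceptor of exon 12 to the donor that exons 13 to 17 also uses. None of the 4 earlier libraries listed it above 0, and at day 8 it had 367 and 379 CPM (15 and 16 reads). Because the earlier libraries were all at 0, where 1 read may be hidden, no fold is given.

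A further 3 members were listed at 0 in all 4 earlier libraries. Exons 5 to 12 had 196 and 142 CPM at day 8 (8 and 6 reads), exons 3 to 6 had 171 and 142 CPM (7 and 6 reads) and exons 12 to 13 had 98.0 and 118 CPM (4 and 5 reads). These levels are close enough to the limit of 3 reads for a single library that their absence before day 8 was not resolved at this depth. A listed 0 in every earlier library was found for 4 of the 8 Nox4 members, against 212 circRNAs (5.48%) of the table. Only circRNAs listed through day 8 alone can show it, 7 of the 8 members against 696 (18.0%) of the table. The locus was chosen as higher at day 8, so nothing is read from this count.

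The remaining pair had the smallest differences of day 8 minus day 0. Exons 3 to 12 was listed at 0 and had 145 CPM at day 0 (0 and 6 reads), was listed at 0 in both libraries of day 4, and had 196 and 94.8 CPM at day 8 (8 and 4 reads). Its day 0 and day 8 libraries overlapped, and the log2 difference of day 8 minus day 0 was 1.05 (SE 0.80). Exons 3 to 11, the catalogued one, had 46.4 CPM and was listed at 0 at day 0 (2 and 0 reads), was listed at 0 at day 4, and had 49.0 and 94.8 CPM at day 8 (2 and 4 reads). The gap between its higher day 0 and its lower day 8 library was that between values of 2 reads each, and the log2 difference of day 8 minus day 0 was 0.90 (SE 0.38).

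The libraries of day 0 had no Nox4 circRNA in common. The 2 reads of replicate 1 were all on exons 3 to 11, and the 11 reads of replicate 2 were on exons 3 to 12, exons 7 to 12 and exons 13 to 17. At day 4, replicate 1 had exons 13 to 17 and exons 7 to 12, and replicate 2 had only exons 13 to 17. In both day 8 libraries all 8 members were above 0. For the 7 members listed through day 8 alone this was fixed by the listing. They could not be above 0 in both libraries of an earlier day, so nothing is read from this contrast between days.

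Counts of called members were set beside the whole table, where called means a Benjamini-Hochberg adjusted p under 0.05 in limma over all 3869 circRNAs. For day 8 against day 0, 5 of the 8 were called higher, against 7.52% of the table. They were exons 13 to 17, exons 12 to 17, exons 5 to 12, exons 3 to 6 and exons 12 to 13. The abundant exons 7 to 12 was not called, nor were exons 3 to 12 and exons 3 to 11. Of the 5 called, 4 were those listed at 0 in every earlier library, where the spread between the earlier libraries is 0. The count fell to 3 without day 0 replicate 1, where the table's higher calls also fell, to 216 against 291. In 7 members both libraries of day 8 lay above both of day 0, as did 26.2% of the table. Among these 7 was exons 3 to 11, with 2 reads each in its higher day 0 and its lower day 8 library.

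For day 8 against day 4, 4 of the 8 were called higher, against 6.05% of the table, and these 4 were those listed at 0 in every earlier library. When only the day 4 and day 8 libraries were fitted, no member was called, and limma called 0 circRNAs in all, with all 8 members among the 513 higher at an unadjusted p under 0.05. All 8 lay higher in both libraries of day 8 than in both of day 4, against 24.6% of the table. For day 4 against day 0, 0 of 8 were called by limma, against 3.95% of the table called higher. At an unadjusted p under 0.05 in limma there were 0 of 8, against 422 higher and 428 lower of the 3869. The locus was chosen on its difference between day 8 and day 0, which the other comparisons share in part, and nothing is read from these counts.

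A minimum of 10 reads in 2 or more libraries left 3 members for testing (exons 13 to 17, exons 7 to 12 and exons 12 to 17). Each passed this minimum through its day 8 libraries alone, with at most 9 reads in any earlier library, so the minimum itself favours calls at day 8 and nothing is read from them. Exons 13 to 17 and exons 12 to 17 were called higher for day 8 against day 0, against 4.53% of the 1368 circRNAs tested. Exons 12 to 17 was called higher for day 8 against day 4, against 0.731% of the 1368.

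The make-up of the locus, which played no part in its choice, could be read at day 8 alone. The 3 most abundant members held 98 of 127 Nox4 reads in replicate 1 (77.2%, 95% exact binomial interval 68.9 to 84.1%) and 99 of 124 in replicate 2 (79.8%, 71.7 to 86.5%). Exons 13 to 17 averaged 34.3% ± 9.60 and exons 7 to 12 averaged 31.8% ± 8.48 of the reads (SD, n = 2). Their order differed between libraries. In replicate 1, exons 7 to 12 held 37.8% (29.3 to 46.8%) and exons 13 to 17 held 27.6% (20.0 to 36.2%). In replicate 2, exons 7 to 12 held 25.8% (18.4 to 34.4%) and exons 13 to 17 held 41.1% (32.4 to 50.3%). These members were therefore not separable in level.

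Exons 12 to 17 came next, with 12.4% ± 0.772 of the reads (SD, n = 2), below the first pair in both libraries. The other 5 held between 1.57% and 6.30% in any library, and their levels of 49.0 to 196 CPM were not ordered alike in both libraries. Exons 5 to 12 averaged 5.57% ± 1.03, exons 3 to 6 5.18% ± 0.476, exons 3 to 12 4.76% ± 2.17, exons 12 to 13 3.59% ± 0.624 and exons 3 to 11 2.40% ± 1.17.

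**Figure D3:**
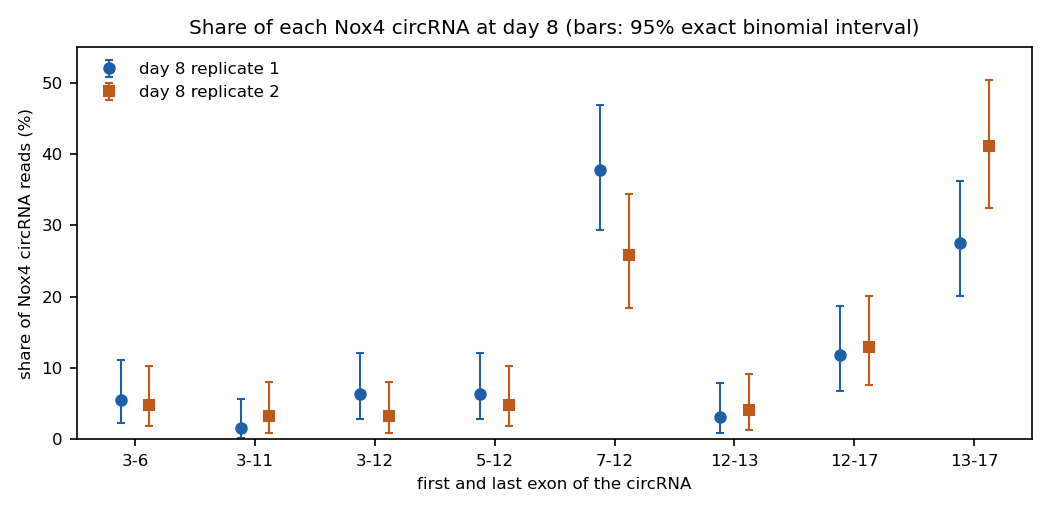
Share of the Nox4 circRNA reads on each member (y axis, %) in day 8 replicate 1 (circles) and replicate 2 (squares), by first and last exon (x axis). Bars are 95% exact binomial intervals, for counting error only. Exons 7 to 12 and exons 13 to 17 hold the highest shares, in the opposite order in the 2 libraries.

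Read along the gene, the side of exon 12 with more reads differed between the day 8 libraries. The 5 members that end at exon 12 or earlier held 73 of 127 reads at day 8 in replicate 1 (57.5%, 48.4 to 66.2%) and 52 of 124 in replicate 2 (41.9%, 33.1 to 51.1%). The mean of both libraries was 49.7% ± 11.0 (SD, n = 2). The 3 members that start at exon 12 or later held the remainder, 50.3% ± 11.0. No member runs across exon 12 from one side to the other. By acceptor, the 3 circRNAs that start at exon 3 summed to 12.3% ± 1.48. Those that start at exon 12 summed to 15.9% ± 1.40, and exons 5 to 12 held 5.57% ± 1.03. The acceptors of exons 7 (31.8% ± 8.48) and 13 (34.3% ± 9.60) together carried most reads. By donor, exon 17 held 46.7% ± 10.4 and exon 12 held 42.1% ± 11.7, which did not differ beyond their spread.

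The circRNAs most like the Nox4 sum in pattern were sought among the 921 others with a mean of at least 10 reads. That mean runs over all 6 libraries, so a circRNA can pass through its day 8 reads. The minimum itself therefore favours circRNAs that are higher at day 8, and nothing is read from the matches. Likeness was Pearson's r over the 6 libraries on the log2(CPM + 43.7) scale. The first 5 had r between 0.959 and 0.981 and Spearman's rho of at least 0.880. All 6 points of each come from the same libraries, with the same scaling, and in each the day 8 pair is the highest. Of the 921, 23 had r over 0.9.

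The closest, uncatalogued in circBase, was on the plus strand of chromosome 7 (97308958 to 97314126, r = 0.981). It had 92.8 and 121 CPM at day 0, then 175 and 99.0 CPM at day 4, and 441 and 545 CPM at day 8. Next was mmu_circ_0000635 (chromosome 15, 88641727 to 88642589, minus strand, r = 0.981), with 1555 and 2082 CPM at day 0, then 2121 and 1956 CPM at day 4, and 3724 and 4098 CPM at day 8. Both were highest in the day 8 libraries, with a smaller relative rise than the Nox4 sum. The others were mmu_circ_0000903 (chromosome 18, 79283290 to 79283919, minus strand, r = 0.967), mmu_circ_0011864 (chromosome 4, 9435774 to 9459212, minus strand, r = 0.965) and an uncatalogued one on the minus strand of chromosome 17 (28644181 to 28644414, r = 0.959). At days 0, 4 and 8, mmu_circ_0000903 averaged 1698, 1884 and 2626 CPM, and mmu_circ_0011864 averaged 249, 259 and 1036 CPM. Their relative rises were also smaller than that of the Nox4 sum. The circRNA on chromosome 17 was listed at 0 in both libraries of day 0, with 43.7 CPM and a listed 0 at day 4, and 833 and 924 CPM at day 8. It and the circRNA on chromosome 7 had at most 8 reads in any earlier library, so both passed the minimum through day 8.

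**Figure D4:**
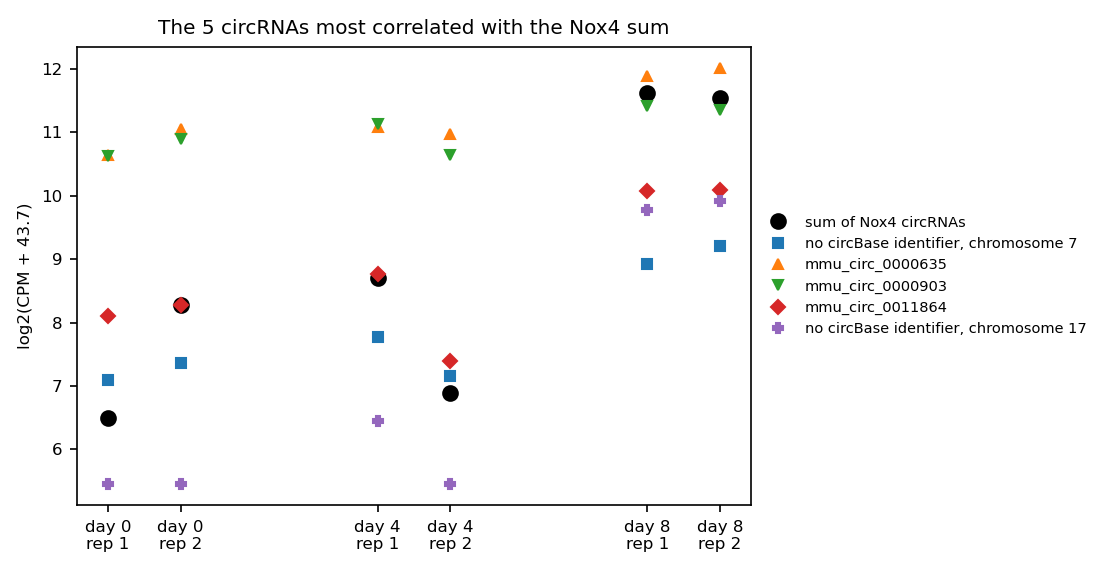
Level of the Nox4 sum (black circles) and of the 5 circRNAs with the highest Pearson's r with it, as log2(CPM + 43.7) on the y axis, in each of the 6 libraries on the x axis. All 6 are highest in both libraries of day 8, and r lies between 0.959 and 0.981.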

How the data were processed

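Total RNA depleted of ribosomal and linear RNA was sequenced, per the labels' protocols. Per the submitters' processing notes, FastQC 0.11.9, HISAT2 2.2.0 and build mm9 were used, while for the circRNA caller no name is given in the sources used here. In the table the authors deposited, values are CPM per library, with a total of 1000000 in every column. Read numbers were inferred from the CPM steps (largest deviation from a whole read 2.52e-07), with the smallest value taken as 2 reads. They served for the binomial intervals, the read minimums and the scaling factors, but no count model was fitted to them. The read-count tests, planned for a table of whole counts, were not run. CPM were scaled by trimmed-mean-of-M-values factors, and log2(CPM + 43.7) of all 6 libraries was fitted with limma 3.58.1 (R 4.3.3, mean-variance trend). CircRNAs at 0 in all fitted libraries were left out of fits of fewer libraries. For the sum, its row took the place of the 8 members. Starts in the table count from 0 and are printed from 1.

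The members, lists and comparisons were chosen with earlier results of these data known. All members are named. The 5 circRNAs most alike in pattern were taken by Pearson's r, among those with a mean of at least 10 reads. Exons were matched by spacing to GENCODE M21, which is on GRCm38, and junction sequences come from its transcripts. Without an mm9 annotation, other NADPH oxidase genes were not analysed here. Alternatives were other scalings, pseudocounts of 1 and 0.1 CPM, a read filter, each library left out, 4-library fits and a replicate block.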

Additional observations from a re-analysis of the deposited data

How the results depend on the processing

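The Nox4 sum kept its direction for day 8 against both earlier days under every alternative run, and for day 4 against day 0 it did not. The locus was chosen as higher at day 8 in these same libraries, so the kept direction is no support for the rise. With each library left out, the log2 difference of the sum ranged from 3.39 to 5.18 for day 8 minus day 0, from 2.89 to 4.78 for day 8 minus day 4 and from -0.50 to 1.38 for day 4 minus day 0. The members called ranged from 3 to 5 for day 8 against day 0, from 3 to 4 for day 8 against day 4, and stayed at 0 for day 4 against day 0 (limma, 0 to 2 at an unadjusted p under 0.05). The table's higher calls in the same fits ranged from 216 to 295, from 192 to 240 and from 98 to 142.

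A minimum of 10 reads in 2 libraries, which leaves 3 members to test, gave 2 called between days 8 and 0 and 1 between days 8 and 4. Among these 3 members alone the day 8 share of exons 13 to 17 was 43.6%, that of exons 7 to 12 was 40.7% and that of exons 12 to 17 was 15.7%. These shares are larger than in the full locus because the total leaves out the other members. When only the day 4 and day 8 libraries were fitted, 0 members were called (8 at an unadjusted p under 0.05, limma), and the cause was not tested. Fitting day 0 and day 8 libraries alone gave 6 called, beside 357 higher and 183 lower in the whole table.

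Over the whole table, 291 circRNAs were called higher and 189 lower for day 8 against day 0. The numbers were 234 and 133 between days 8 and 4, and 153 and 163 between days 4 and 0. The read filter gave 62 and 31, 10 and 4, and 34 and 14. The 4-library fits called 0 for day 8 against day 4 (limma, 513 higher and 371 lower at an unadjusted p under 0.05) and 0 for day 4 against day 0 (433 and 442). Lower calls for day 8 against day 0 became 117 without day 8 replicate 1 or replicate 2. For day 4 against day 0, higher calls became 98 without day 0 replicate 1, and lower calls were 100 and 108 with day 4 replicate 1 and day 4 replicate 2 left out in turn.

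Same-numbered replicates did not deviate together (Pearson's r across circRNAs -0.015 to -0.0059 between days), so the numbers were not taken as pairs. With the replicate block, day 8 against day 0 had 5 members called and a log2 difference of the sum of 4.27. Day 4 against day 0 had 0 called and 0.44, and day 8 against day 4 had 4 called and 3.83, the same counts as without it. The table's higher calls under the block were 268, 142 and 222 in this order. Day 8 shares with either library left out ranged from 25.8 to 37.8% for exons 7 to 12, from 27.6 to 41.1% for exons 13 to 17, from 11.8 to 12.9% for exons 12 to 17, from 4.84 to 6.30% for exons 5 to 12, from 4.84 to 5.51% for exons 3 to 6, from 3.23 to 6.30% for exons 3 to 12, from 3.15 to 4.03% for exons 12 to 13 and from 1.57 to 3.23% for exons 3 to 11. Depth limits the 5 scarcer members (at most 8 reads).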
